A study of Mus musculus with 2 samples.

Results

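Barcodes that carried T cell receptor complex RNA together with RNA of naive T cell factors were picked from 2 single-cell libraries of sorted heart leukocytes. A barcode stands for 1 droplet, and a UMI (unique molecular identifier) for 1 captured RNA molecule. The rule asked for 3 or more UMIs of Cd3d, Cd3e and Cd3g together, 2 or more UMIs of Tcf7, Lef1 and Ccr7 together, and no UMI of Gzmb. It was applied to barcodes with 300 or more genes and no more than 10% of UMIs from mitochondrial genes, here called kept barcodes. Of 9770 kept barcodes, 164 met the rule, 66 in the TAC library and 98 in the sham library. They are called naive-marker T barcodes below, because the data go against the plain label of naive-like T cells for most of them: 53 of 66 in the TAC library and 84 of 98 in the sham library also carried macrophage RNA at 50 or more UMIs of the C1q genes per 10000 UMIs. The 7 genes of the rule chose the members, so their levels are given as a description and support nothing.

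Naive T cells are lymphocytes that have left the thymus and have not yet met their antigen. They circulate between blood and lymph nodes, using CCR7 to enter nodes and S1PR1 to leave them, and they depend on interleukin 7 through IL7R. TCF-1 (Tcf7) and LEF1 are transcription factors of this resting state, and the effector genes for granzymes and chemokines are largely silent. In heart tissue such cells are usually few beside the resident macrophages, which produce complement C1q.

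The TAC library came from wild-type C57BL/6 mice, 10 weeks old, with transverse aortic constriction, an operation that narrows the aorta and loads the left ventricle with pressure. The sham library came from mice of the same strain, genotype and age that had a sham operation. In both, hearts were digested and cells with surface CD45, the leukocyte common antigen, were sorted. Cells of 6 mice per group went into 1 library, the animals cannot be told apart, and the comparison of TAC with sham therefore has no replicate and no test.

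Intervals are exact 95% intervals, binomial (Clopper-Pearson) for shares, Poisson for summed UMIs and conditional binomial for ratios, and all cover counting error only. The naive-marker T barcodes held 1593001 UMIs in the TAC library and 1852254 in the sham library, with a median of 23047 (range 6503 to 64664) UMIs per TAC barcode and 16726.5 (range 3310 to 109335) per sham barcode. Their median mitochondrial share was 4.20% in TAC and 7.25% in sham. The libraries shared 35 barcode sequences, 7 among kept barcodes and 0 among the naive-marker T barcodes. No doublet caller was run, and barcodes with RNA of more than 1 cell type were kept and described.

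C1qa, C1qb and C1qc, the subunits of complement C1q and a hallmark of tissue macrophages, were present in most naive-marker T barcodes. The lowest, median and highest C1q content was 0, 123 and 267 UMIs per 10000 in TAC barcodes, against 1.6, 107 and 194 in sham barcodes. Barcodes taken as macrophages (50 or more C1q UMIs per 10000 and fewer than 3 Cd3 UMIs) had medians of 193 in TAC and 161 in sham. Barcodes taken as fibroblasts (10 or more UMIs of Col1a1, Col1a2 and Dcn, fewer than 3 Cd3 UMIs) had medians of 2.04 in TAC and 1.12 in sham, which is the level in cells that do not make C1q. The libraries overlapped up to the highest sham barcode, above which lay 10 of 66 TAC barcodes, and in each library the naive-marker T barcodes had a median nearer to that of the macrophages than to that of the fibroblasts.

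**Figure D1:**
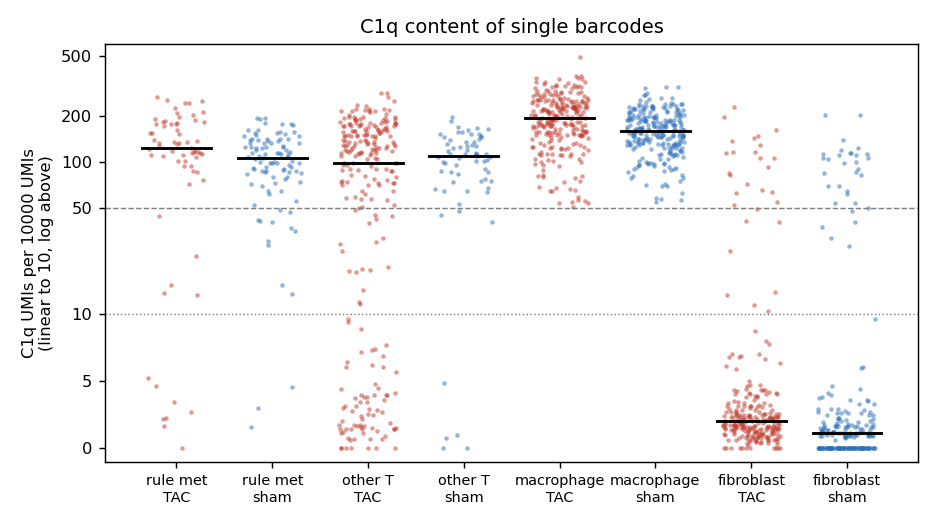
C1q UMIs per 10000 UMIs (linear to 10, log above) in single barcodes, with TAC in red and sham in blue. Horizontal bars are medians over all barcodes of a class, up to 250 barcodes of each class are drawn, the dashed line is at 50 and the dotted line at 10. Barcodes meeting the rule had medians of 123 in TAC and 107 in sham, near the macrophage barcodes.

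The share with 50 or more C1q UMIs per 10000 was 80.3% (68.7 to 89.1) of the naive-marker T barcodes in TAC and 85.7% (77.2 to 92.0) in sham. Among the other barcodes with 3 or more Cd3 UMIs, the other T barcodes, it was 64.4% in TAC and 87.7% in sham. It was 68.2% in TAC and 92.3% in sham for B cell barcodes (3 or more UMIs of Cd79a and Ms4a1 together, fewer than 3 Cd3 UMIs), and 43.8% in TAC and 86.4% in sham for natural killer barcodes (likewise with Ncr1 and Klrb1c). Fibroblast barcodes reached it in 8.24% in TAC and 11.8% in sham, and endothelial barcodes (likewise with Cdh5, Kdr and Cldn5) in 9.63% (6.94 to 12.9) in TAC and 32.0% (23.8 to 41.0) in sham. Lymphocyte barcodes of every kind listed here had higher shares than fibroblast and endothelial barcodes of the same library.

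The macrophage RNA in these barcodes had the make-up of the library's own macrophages. Csf1r, the receptor for macrophage colony-stimulating factor, had a UMI in 57 of 66 TAC barcodes and 96 of 98 sham barcodes. Expressed per 100 C1q UMIs, 22 macrophage marker genes stood at a median of 0.926 times (range 0.612 to 1.14) the macrophage level in TAC and 1.10 times (range 0.856 to 1.41) in sham. Within 1.5-fold of the macrophage ratio were 21 of 22 genes in TAC and 22 of 22 in sham. Ccl24, a chemokine of resident macrophages and the exception in TAC, had 0.0888 UMIs per 100 C1q UMIs in naive-marker T barcodes and 0.145 in macrophages of the TAC library.

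**Figure D2:**
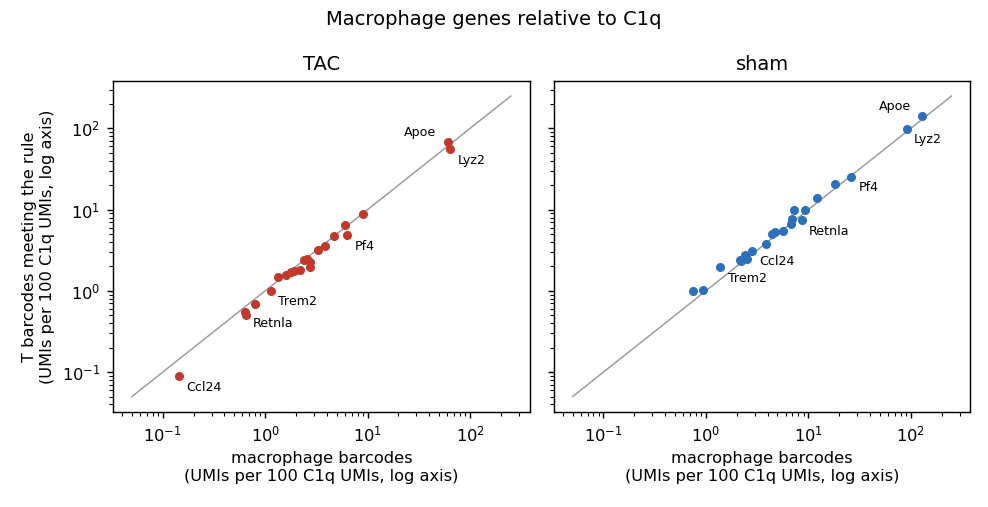
UMIs of 22 macrophage marker genes per 100 C1q UMIs, macrophage barcodes on the x axis and barcodes meeting the rule on the y axis (log axes), TAC left and sham right. The grey line marks equality, and the points follow it with medians of 0.926 times in TAC and 1.10 times in sham.

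Few members were free of this RNA. Under 10 C1q UMIs per 10000 were 8 barcodes in TAC and 3 in sham, here called C1q-poor, and 5 in TAC and 11 in sham lay between 10 and 50. C1q-poor members were shallower, with a median of 8831.5 UMIs in TAC and 6642 in sham, against 24579 in TAC and 17318 in sham for members with 50 or more. Of the 8 C1q-poor TAC barcodes, 6 had a UMI of Cd8a or Cd8b1, the chains of the CD8 coreceptor, and 0 had Cd4. Of these 8, however, 2 held 154 and 145 UMIs of Ccl5, a chemokine of memory and effector CD8 T cells, and neither had a UMI of Ccr7. Of the 3 C1q-poor sham barcodes, 0 had Cd8a, Cd8b1 or Cd4, and 1 held 19 UMIs of Trdc, the constant gene of the delta T cell receptor chain. So even the C1q-poor members were not uniformly naive-like, and at 8 and 3 barcodes a shift in their make-up between TAC and sham was not detectable at this depth.

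Naive-marker T barcodes were a smaller share of the kept barcodes in TAC than in sham. They made up 1.18% (0.912 to 1.5) of 5601 kept barcodes in TAC and 2.35% (1.91 to 2.86) of 4169 in sham, a ratio of TAC over sham of 0.501 (0.361 to 0.692). Of all barcodes with 3 or more Cd3 UMIs, they were 66 of 319 in TAC, or 20.7% (16.4 to 25.6), and 98 of 163 in sham, or 60.1% (52.2 to 67.7). All T barcodes together were the larger share in TAC, with 5.70% of kept barcodes in TAC and 3.91% in sham. Both shares rest on the rule, and with 1 library per group they describe these libraries.

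The size of this difference depended on the granzyme B limit of the rule. A Gzmb UMI was present in 68.3% (62.9 to 73.4) of T barcodes in TAC and in 13.5% (8.66 to 19.7) in sham. In macrophage barcodes, which should lack this cytotoxic protease, it was present in 4.22% in TAC and 0.657% in sham. Just outside the rule, 42 T barcodes in TAC and 10 in sham met every other limit but held a Gzmb UMI, while 15 in TAC and 17 in sham had a single UMI of Tcf7, Lef1 and Ccr7. Just inside it, 5 barcodes in TAC and 12 in sham had exactly 2 UMIs of these factors, and 2 in TAC and 8 in sham exactly 3 Cd3 UMIs. Without the Gzmb limit, 108 barcodes qualified in TAC and 108 in sham, and the log2 ratio of the shares of kept barcodes moved to -0.43, against -1.0 with the limit.

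The log2 ratio also changed with settings for depth, mitochondrial content and C1q content. The intervals given below all hold the main value of -1.0, so these moves are not settled at these counts. For depth, every barcode was thinned to 3000 UMIs before the rule was applied. Then 11 of 5436 barcodes qualified in TAC and 9 of 4137 in sham, a log2 ratio of -0.10 (-1.51 to 1.34). With a limit of 5% mitochondrial UMIs, 43 of 3440 qualified in TAC (1.25%) and 6 of 121 in sham (4.96%), a log2 ratio of -1.99 (-3.23 to -0.46). The kept barcodes were 70.2% of all barcodes in TAC and 34.9% in sham, so the 10% limit removed many more sham barcodes. Counting only C1q-poor barcodes, the order of the libraries turned, with 8 of 5601 in TAC and 3 of 4169 in sham. The log2 ratio was 0.99 (-1.07 to 3.54), an interval that spans 0, so the order is not settled at these counts. Among C1q-rich T barcodes the members were 53 of 216 in TAC and 84 of 141 in sham, and among C1q-poor T barcodes 8 of 79 in TAC and 3 of 8 in sham.

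**Figure D3:**
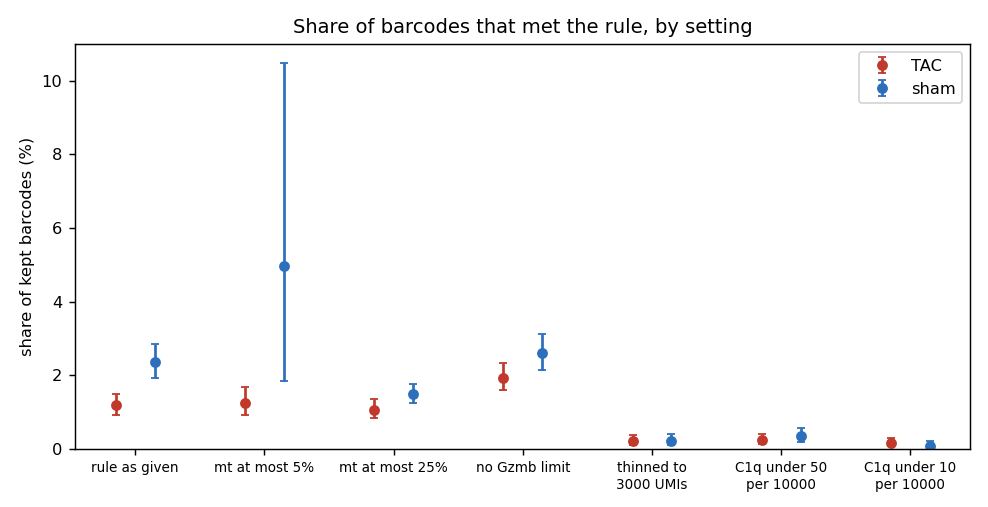
Share of kept barcodes that met the rule, in percent with exact 95% binomial intervals, for the rule as given and for 6 other settings, TAC in red on the left and sham in blue on the right of each pair. The share was lower in TAC under the rule as given (1.18% in TAC, 2.35% in sham). The difference was smaller without the Gzmb limit (1.93% in TAC, 2.59% in sham, log2 ratio interval -0.82 to -0.028). After thinning, the log2 ratio interval of -1.51 to 1.34 spanned 0. The order turned for C1q under 10 per 10000, where the log2 ratio had an interval of -1.07 to 3.54.

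T cell receptor RNA was present in all members. The lowest, median and highest number of UMIs from the receptor constant genes Trac, Trbc1 and Trbc2 was 3, 12 and 97 per barcode in TAC and 1, 8 and 34 in sham. Their sum was 682 CPM (UMIs of a gene per 1000000 UMIs of the barcodes summed) in TAC and 518 CPM in sham. Macrophage barcodes held 1.89 CPM of Trbc2 in TAC and 2.41 CPM in sham, against 377 CPM in naive-marker T barcodes of TAC and 286 CPM in those of sham. Trbc1 and Trbc2 are near-identical, and the split of reads between them is uncertain. Variable segments were too thinly covered to show clones: segments of the beta chain gave 11 UMIs from 8 of 35 segments in TAC and 13 UMIs from 8 of 35 in sham, with Trbv12-2 seen most often, in 3 barcodes in TAC and 4 in sham.

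CD8 RNA was detected in more barcodes than CD4 RNA in both libraries, with 2 genes counted for CD8 and 1 for CD4. Cd8a or Cd8b1 had a UMI in 44 of 66 barcodes in TAC and 53 of 98 in sham, and Cd4, the coreceptor of helper T cells, in 10 of 66 in TAC and 18 of 98 in sham. Neither coreceptor was detected in 15 barcodes in TAC and 32 in sham. Cd8b1 ranged from 0 to 16 UMIs per barcode with a median of 2.5 in TAC, and from 0 to 9 with a median of 1 in sham, so the libraries overlapped. Summed over barcodes it was 149 CPM (130 to 169) in TAC and 105 CPM (91.0 to 121) in sham, and in macrophages 0.553 CPM in TAC and 0.140 CPM in sham. Cd4 was 8.79 CPM (4.80 to 14.7) in TAC and 17.3 CPM (11.8 to 24.4) in sham. Foxp3, the factor that defines regulatory T cells, had 0 UMIs in TAC and 1 UMI in sham.

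**Figure D4:**
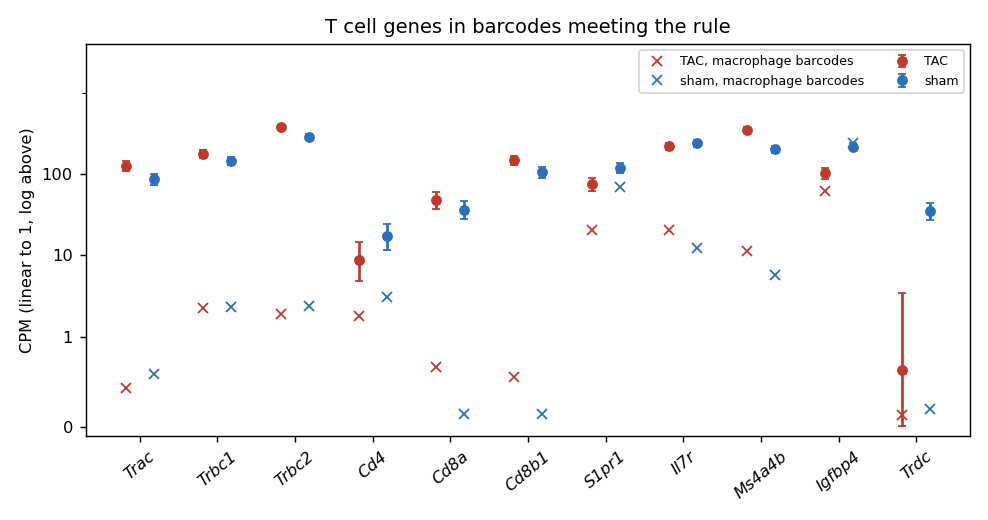
Summed level of T cell genes in the barcodes meeting the rule (dots, CPM with exact 95% Poisson intervals) and in macrophage barcodes (crosses), TAC in red on the left and sham in blue on the right of each pair, on an axis linear to 1 and log above. Receptor and CD8 genes are far above the macrophage level, S1pr1 less so, and Igfbp4 is near it in sham. Trdc was 0.628 CPM in TAC and 35.1 CPM in sham.

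Of the receptor signalling machinery, 1 gene was past 2-fold between the libraries. Genes with 20 or more UMIs over both libraries were counted as measured, and a measured gene at 2-fold or more was counted as higher or lower in TAC. Of all 8647 measured genes, 483 (5.59%) were higher and 786 (9.09%) lower in TAC, and their median log2 ratio of TAC over sham was -0.07. Of 23 measured genes of receptor signalling, 0 were higher and 1 lower, and the median log2 ratio was 0.13. Lck, the kinase that starts the signal, was 82.2 CPM in TAC and 50.2 CPM in sham. Zap70, the kinase that follows it, was 16.9 CPM in TAC and 16.7 CPM in sham. Lat, an adaptor of this signalling, was 83.5 CPM in TAC and 49.7 CPM in sham. Grap2, an adaptor of the same complex and the gene past 2-fold, was 24.5 CPM (17.4 to 33.5) in TAC and 57.8 CPM (47.3 to 69.8) in sham. Of Lck, Zap70, Lat and Grap2 macrophages held at most 3.67 CPM in TAC and 2.78 CPM in sham. Among barcodes under 50 C1q UMIs per 10000 (13 in TAC, 14 in sham) the median over 16 measured signalling genes was 1.31 (0.98 to 2.22). In that sham pool, 2 deep barcodes held 109335 and 51285 UMIs, where the 11 barcodes between 10 and 50 held 314434. These 2 had 1175 and 442 UMIs of Lyz2, a macrophage marker gene. Their part in the values given here for barcodes under 50 C1q UMIs was not tested.

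Naive and trafficking genes outside the rule showed no common direction. Of 22 measured genes, 0 were higher and 2 lower in TAC (Ccr9 and Igfbp4). Of all measured genes 5.59% were higher and 9.09% lower, so 2 of 22 lower is no excess. The median log2 ratio of the 22 was -0.29, beside -0.51 in macrophages. Among the 13 TAC and 14 sham barcodes under 50 C1q UMIs per 10000 the direction turned, with a median of 1.37 over 16 genes and 1.79 for Igfbp4. That sham pool includes the 2 deep barcodes with Lyz2 named above. Scaled to receptor constant UMIs, the median over all naive-marker T barcodes was -0.68. S1pr1, the exit receptor, was 76.0 CPM (63.0 to 90.8) in TAC and 120 CPM (105 to 137) in sham, and macrophages differed in the same direction, with 20.4 CPM in TAC and 70.4 CPM in sham. Il7r was 220 CPM (198 to 245) in TAC and 239 CPM (217 to 263) in sham, with overlapping intervals, against 20.4 CPM in TAC macrophages and 12.4 CPM in sham macrophages.

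At a fixed depth of 2000 UMIs per barcode, Il7r and S1pr1 were seen in like shares of both libraries. Il7r was detected in 47.0% (34.6 to 59.7) in TAC and 37.8% (28.2 to 48.1) in sham, while without thinning the shares were 84.8% in TAC and 88.8% in sham, and it was detected in 2.56% of thinned macrophages in TAC and 1.17% in sham. S1pr1 was detected in 21.2% in TAC and 22.4% in sham, beside 3.71% of thinned macrophages in TAC and 12.5% in sham. Cd44, an adhesion receptor that is high on memory T cells, was detected in 16.7% in TAC and 17.3% in sham. Thinned macrophages had Cd44 in 27.3% in TAC and 25.9% in sham, so its share in the naive-marker T barcodes is no more than background and says nothing of memory. In these comparisons 17 TAC macrophages and 7 sham macrophages were left out as too shallow, and no naive-marker T barcode was.

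Against the other T barcodes of the same library, naive and trafficking genes outside the rule were past 2-fold mainly in one direction. In TAC, 9 of 21 measured genes of the list were at least 2-fold higher and 1 lower in naive-marker T barcodes (median log2 ratio over other T barcodes 0.54), where of 10151 measured genes 1.57% were higher and 6.87% lower. In sham, 6 of 22 were higher and 0 lower (median 0.28), where of 8380 genes 2.37% were higher and 3.39% lower. Ms4a4b, a membrane gene of T cells, ran against this, with 347 CPM in naive-marker and 720 CPM in other T barcodes of TAC, and 202 CPM in naive-marker and 272 CPM in other T barcodes of sham. Dapl1, a gene known from naive CD8 T cells, was 60.3 CPM in naive-marker T barcodes and 0.501 CPM in other T barcodes of TAC. In sham it was 45.4 CPM in naive-marker T barcodes and 12.6 CPM in other T barcodes. Macrophages held 0.0167 CPM in TAC and 0.140 CPM in sham, and 34 of the 96 Dapl1 UMIs of TAC and 0 of the 84 of sham were in C1q-poor barcodes. Satb1, a chromatin organiser of thymocytes and resting T cells, was 113 CPM in naive-marker and 41.6 CPM in other T barcodes of TAC, and 143 CPM in naive-marker and 54.8 CPM in other T barcodes of sham. Of the cytotoxic effector list, 0 genes were higher and 17 of 21 lower in naive-marker T barcodes of TAC, and 0 higher and 11 of 18 lower in those of sham. Nkg7, a gene of cytotoxic granules, was 156 CPM in naive-marker and 1079 CPM in other T barcodes of TAC, and 113 CPM in naive-marker and 396 CPM in other T barcodes of sham. Ifng, the gene of interferon gamma, was 20.1 CPM in naive-marker and 302 CPM in other T barcodes of TAC, and 17.3 CPM in naive-marker and 104 CPM in other T barcodes of sham. The other T barcodes are those the rule set aside, for Gzmb or for under 2 UMIs of Tcf7, Lef1 and Ccr7 together. Of all T barcodes, 211 of 319 in TAC and 55 of 163 in sham were under that limit. So a part of both the naive and the effector contrast follows from the rule, and the size of that part was not tested.

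Some members carried effector or innate-like T cell RNA all the same. Ccl5 had a UMI in 27 of 66 barcodes in TAC and 29 of 98 in sham, but macrophage barcodes had one in 29.8% in TAC and 5.73% in sham. Thinned to 2000 UMIs, it was detected in 21.2% (12.1 to 33.0) of naive-marker T barcodes in TAC and 23.5% (15.5 to 33.1) in sham, against 8.95% of macrophages in TAC and 2.90% in sham. With 10 or more Ccl5 UMIs there were 14 barcodes in TAC and 20 in sham. One TAC barcode held 328 of the 1093 Ccl5 UMIs in TAC, and the most in a sham barcode was 109 of 1006. Trdc had 1 UMI in 1 of 66 barcodes in TAC and 65 UMIs in 9 of 98 in sham, or 0.628 CPM (0.0159 to 3.50) in TAC and 35.1 CPM (27.1 to 44.7) in sham. Il17a, the cytokine gene of type 17 and many gamma-delta T cells, had 0 UMIs in TAC and 97 UMIs in 3 barcodes in sham, of which 72 were in C1q-poor barcodes. This difference rests on 3 sham barcodes, 1 of which held 54 of the UMIs.

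Effector and checkpoint genes past 2-fold went in both directions, and of the few helper lineage genes past 2-fold more were lower in TAC. Over all measured genes 5.59% were higher and 9.09% lower. Of 15 measured cytotoxic effector genes 2 were higher and 2 lower in TAC (median log2 ratio 0.34, but 1.53 over 8 genes under 50 C1q UMIs per 10000 and -0.03 with 50 or more), of 20 activation and memory genes 3 were higher and 2 lower (median 0.18, but -0.64 under 50 C1q UMIs per 10000), and of 7 checkpoint genes 2 were higher and 2 lower. Of 12 helper lineage genes 1 was higher and 6 were lower. Their median of -0.89 had an interval over genes of -1.82 to 0.59, which spans 0. It was the same when genes without a UMI are set to the floor of 3 UMIs. Of the 26 listed helper genes, 14 had 0 UMIs in TAC and 7 in sham. Pdcd1, the gene of the PD-1 receptor, had 18 UMIs in 5 barcodes in TAC and 7 UMIs in 4 barcodes in sham. S100a4 was 240 CPM in TAC and 744 CPM in sham, but 1 sham barcode held 488 of the 1378 sham UMIs.

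Genes that macrophages hardly express gave the T cell side of the comparison with the least macrophage RNA. In both libraries 77 measured genes had a macrophage level of no more than 10% of the level in naive-marker T barcodes, a limit chosen after the values were seen. The 77 include 6 genes of the rule, of which 0 were past 2-fold and which support nothing. A gene also needed a UMI in both libraries, so genes absent from 1 library could not enter, which favours small ratios. Of the 77, 3 (3.9%) were higher in TAC and 5 (6.49%) lower, and the median log2 ratio was 0.13. The higher ones were Pdcd1, Tnfrsf4 and Gm30054, and the lower ones Gzmm, Gm26551, Ehd3, Gm14085 and Tdrp, all named after their values were seen. Tnfrsf4, the gene of the costimulatory receptor OX40, had 23 UMIs in 4 TAC barcodes and 9 UMIs in 2 sham barcodes. No interferon, MHC, heat-shock or immediate-early gene of the lists was among the 77. Genes that macrophages express could not pass the filter, so this absence says nothing of these genes in T cells. The interferon list, for one, summed to 21920 CPM in TAC macrophages and 18899 CPM in naive-marker T barcodes of TAC.

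Interferon-stimulated genes were the largest group with a common direction. At 2-fold or more, 56 of 76 measured genes were higher in TAC and 0 lower, and the median log2 ratio was 1.72 (1.34 to 2.46). In macrophage barcodes 60 of the 76 were higher and 0 lower (median 1.84), where 6.49% of 13012 measured genes were higher and 10% lower. In other T barcodes 45 of the 76 were higher and 0 lower (median 1.26), where 9.29% of 10141 measured genes were higher and 8.52% lower. Their summed UMIs per 10000 had a lowest, median and highest value of 61.9, 168 and 328 in TAC barcodes and 14.8, 59.5 and 151 in sham barcodes, so the libraries overlapped only in part. Of the 11 list genes measurable in C1q-poor members, the median log2 ratio was 0.84 (0.16 to 2.59).

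Guanylate-binding proteins and immunity-related GTPases, which attack vacuoles of intracellular pathogens and are classic targets of interferon gamma, stood at the top. Gbp2b (ENSMUSG00000040264, chr3:142594847-142619179, plus strand of GRCm38) had a lowest, median and highest count of 0, 1 and 36 UMIs per TAC barcode and 0, 0 and 1 per sham barcode. It was 150 CPM (132 to 170) in TAC and 2.70 CPM (0.876 to 6.30) in sham barcodes, 55.6-fold (23.5 to 173) higher, with 242 CPM in TAC macrophages and 2.66 CPM in sham macrophages. Gbp2 (ENSMUSG00000028270, chr3:142620602-142638008, plus strand) had 0, 11 and 70 UMIs per TAC barcode and 0, 0 and 6 per sham barcode. It was 635 CPM in TAC and 21.6 CPM in sham, 29.4-fold (21.5 to 41.4) higher, with 702 CPM in TAC macrophages and 21.2 CPM in sham macrophages. In the C1q-poor barcodes Gbp2 had 12 UMIs in TAC and 0 in sham, and Gbp2b had 0 in both. Gbp2b and Gbp2 are paralogs that lie side by side, and reads could be split between them.

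Ly6a, the gene of the surface antigen Sca-1, was detected in 64 of 66 barcodes in TAC and 37 of 98 in sham. Its level was 997 CPM (948 to 1050) in TAC and 41.6 CPM (32.8 to 52.0) in sham, 24.0-fold (19.1 to 30.5) higher, and macrophages had 1290 CPM in TAC and 31.2 CPM in sham. In the C1q-poor barcodes it was 564 CPM in TAC and 490 CPM in sham, from 40 and 11 UMIs. The other leading genes were Fcgr4, a macrophage Fc receptor, Ch25h, which makes 25-hydroxycholesterol, Iigp1, Gbp4, Ifitm1, Il18bp, Tgtp2, Fam26f and Gbp5, which were 16.1-fold to 45.3-fold higher in TAC. Each of these was also higher in TAC macrophages than in sham macrophages, at 75.3 CPM (Tgtp2) or more in TAC, and the T cell and macrophage parts of the difference cannot be told apart in these barcodes.

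The promoters of these genes are shown because the genes moved together. In RefSeq promoters of GRCm38.p6, the letters GAAA, any 2 bases and GAAA again, the core of the interferon-stimulated response element, were searched on both strands in the 250 bases before the start. They were present for 30 of 59 interferon-list genes with a promoter in the table (50.8%), for 0 of 18 naive and trafficking genes, and for 3.46% of all 27025 genes, and a match is a description and not a binding site. The letters TTC, any 3 bases and GAA, the core of the gamma-activated site, were present for 14 of the 59 (23.7%) and for 8.13% of all genes, and the 2 motifs can overlap. The stretches below are 90 bases each, 5′ to 3′ on the gene's own strand, with the match in capitals, which reads TTTC, any 2 bases and TTTC where it lies on the other strand. They lie at chr3:142594670-142594759 (plus strand) for Gbp2b, chr11:49064233-49064322 (minus strand) for Tgtp2, and chr1:171018813-171018902 (plus strand) for Fcgr4, all upstream of the annotated start.
Gbp2b: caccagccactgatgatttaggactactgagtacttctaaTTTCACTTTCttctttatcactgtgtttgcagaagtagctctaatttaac
Tgtp2: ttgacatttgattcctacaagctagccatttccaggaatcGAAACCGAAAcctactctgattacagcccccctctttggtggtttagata
Fcgr4: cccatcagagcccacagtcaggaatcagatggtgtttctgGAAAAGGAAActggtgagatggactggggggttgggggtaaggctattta

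Antigen presentation genes followed the same pattern. Of 21 measured genes of MHC class I and the immunoproteasome 13 were higher in TAC and 0 lower (median log2 ratio 1.30), beside 1.81 in macrophages. Of these, Psmb9, an immunoproteasome subunit, was 413 CPM (382 to 446) in TAC and 107 CPM (93 to 123) in sham. Tap1, the peptide transporter, was 195 CPM in TAC and 47.5 CPM in sham, and since it overlaps Psmb9 on the other strand, reads of the 2 genes may not be fully separate. Of 13 MHC class II genes, which are hallmarks of antigen-presenting cells rather than of mouse T cells, 6 were higher and 1 lower, with a median of 0.92 beside 0.74 in macrophages and -1.01 in the barcodes under 50 C1q UMIs per 10000. Cd74, the invariant chain, was 10371 CPM in TAC and 5145 CPM in sham, against 13972 CPM in TAC macrophages and 7357 CPM in sham macrophages.

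Heat-shock and immediate-early genes past 2-fold were mostly lower in TAC, while 11 of 20 heat-shock and 19 of 30 immediate-early genes lay within 2-fold. Of 20 heat-shock and chaperone genes 8 were lower and 1 higher (median log2 ratio -0.42), beside -0.35 in macrophages. Hspa1a, an inducible HSP70 gene (ENSMUSG00000091971, chr17:34969190-34972156, minus strand), had a lowest, median and highest count of 0, 2 and 36 UMIs per barcode in TAC and 0, 36 and 104 in sham. It was 215 CPM (193 to 239) in TAC and 2121 CPM (2055 to 2189) in sham, with 397 CPM in TAC macrophages and 2794 CPM in sham macrophages. Its near-identical neighbour Hspa1b was 75.3 CPM in TAC and 1229 CPM in sham, and the split of reads between the pair is uncertain. Hsp90aa1, the inducible HSP90, was 668 CPM in TAC and 1805 CPM in sham. Of 30 AP-1 and immediate-early genes, which respond within minutes to stimulation or tissue handling, 10 were lower and 1 higher, with a median of -0.77 beside -0.76 in macrophages and 0.075 in the barcodes under 50 C1q UMIs per 10000. Klf4 was 239 CPM in TAC and 1327 CPM in sham, and Fosb was 345 CPM in TAC and 1139 CPM in sham, with a log2 ratio of 0.30 in the barcodes under 50 C1q UMIs per 10000. The mitochondrial share, 4.20% in TAC and 7.25% in sham, moved with these genes, and its part in the result was not tested.

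**Figure D5:**
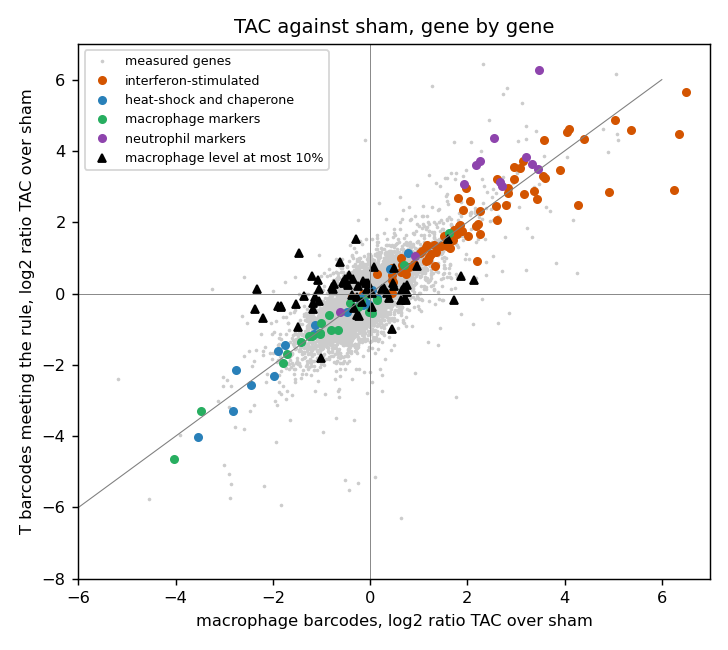
Log2 ratio of TAC over sham for each measured gene in macrophage barcodes (x axis) and in barcodes meeting the rule (y axis), with the diagonal as a grey line. Interferon-stimulated genes (medians 1.72 in barcodes meeting the rule and 1.84 in macrophages) lie upper right and heat-shock genes (medians -0.42 and -0.35) lower left. Black triangles are genes of the 77 with little macrophage RNA (median of the 77 0.13), drawn where macrophages had 20 or more UMIs. They lie mostly close to 0 on the y axis. The 77 include 6 genes of the rule and, by the filter, only genes with a UMI in both libraries.

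Markers of other cell types differed between the libraries too. Of 22 macrophage markers 1 was higher and 11 were lower in TAC (median log2 ratio -0.92), as in macrophages themselves (1 higher, 10 lower, median -0.82). Their summed level was 24824 CPM in naive-marker T barcodes of TAC and 39335 CPM in those of sham. Igf1, the gene of insulin-like growth factor 1, was 35.8 CPM in TAC and 200 CPM in sham, and Retnla, a gene of alternatively activated macrophages, was 76.6 CPM in TAC and 761 CPM in sham, with 75 of the 122 TAC UMIs in 1 barcode. Of 12 measured neutrophil markers 11 were higher in TAC and 0 lower (median 3.54). With 3 or more UMIs of the calprotectin genes S100a8 and S100a9 together there were 55 of 66 barcodes in TAC and 8 of 98 in sham. S100a8 had a UMI in 87.9% of TAC members, beside 80.2% of macrophage and 75.3% of fibroblast barcodes. Neutrophil markers had a lowest, median and highest sum of 0.417, 3.52 and 831 UMIs per 10000 in TAC barcodes and 0, 0.362 and 252 in sham. S100a8 alone reached 1984 CPM in TAC and 246 CPM in sham, with 866, 412 and 405 UMIs in the highest TAC barcodes. Macrophages held more of it, with 4678 CPM in the TAC library and 713 CPM in the sham library. B cell RNA (3 or more UMIs of Cd79a and Ms4a1) was present in 0 of 66 barcodes in TAC, where a floor of 3 counts would be 4.55% and the exact upper bound is 5.44%, and in 6 of 98 in sham. Fibroblast RNA (3 or more UMIs of Col1a1, Col1a2 and Dcn) was present in 1 of 66 barcodes in TAC and 2 of 98 in sham, and 1 TAC barcode held 305 of the 317 Dcn UMIs of TAC. Erythroid and platelet genes had 5 of 5 measured genes lower in TAC (median -5.22, macrophages -0.44), with a summed level of 748 CPM in TAC and 5031 CPM in sham. Per 10000 UMIs, the lowest, median and highest barcode held 0, 3.58 and 40.2 of these UMIs in TAC and 1.6, 25.2 and 2431 in sham, with the highest sham barcode far above the sham median.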

How the data were processed

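Sorted CD45+ heart cells were profiled by 10x Genomics droplet sequencing, 1 TAC and 1 sham library. The deposited matrices hold raw UMI counts per gene and barcode without normalization, and the authors made them with Cell Ranger 3.0 on mm10, per the submitters' processing notes. The step that told cells from empty droplets is not named in the files or labels used. The labels speak of several droplet runs, but all barcodes carry 1 suffix, so runs were not separated. Counts were summed over barcodes of each class and divided by the class total (CPM). Log2 ratios had 0.5 UMIs added to each count. Symbols come from the files, and positions from GENCODE vM21 (GRCm38). The ratio code was tested on simulated data. Work was done in Python 3.11.15 with pandas 2.3.3, scipy 1.17.1, numpy 2.4.6 and matplotlib 3.10.9.

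The members, gene lists and limits were chosen with earlier results of these data known. Named genes were the 12 highest and 12 lowest by the interval bound nearest 1, among genes with 50 or more UMIs over both libraries and 50 or more CPM in either. They also had to be detected in 10% or more of the barcodes of the higher library, with no single barcode holding most of the UMIs (with marker, ribosomal, mitochondrial, receptor segment and predicted genes left out). Up to 2 members at each end of each list and defining T cell genes were added. Dapl1, Satb1, Nkg7, Ifng, Ccl5, Lck, Zap70, Cd74, Hsp90aa1, S100a8 and Top2a were named besides, with their values known. Alternatives changed the limits, the scaling, the depth and the C1q content. Values of some listed genes are not reported here.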

Additional observations from a re-analysis of the deposited data

How the results depend on the processing

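The share of kept barcodes, with a log2 ratio of TAC over sham of -1.0, kept its direction in 11 of 12 other settings. It moved to -1.99 with at most 5% mitochondrial UMIs, -0.48 with at most 25% and -0.43 without the Gzmb limit. It was -0.10 (-1.51 to 1.34) after thinning to 3000 UMIs and turned to 0.99 (-1.07 to 3.54) with under 10 C1q UMIs per 10000, and both intervals span 0. The share of T barcodes (-1.54) moved to -0.97 without the Gzmb limit and -2.33 under 50 C1q UMIs. The sham share of C1q-rich members moved to 96.9% at a limit of 10 and 54.1% at 100. Gene counts (483 higher, 786 lower in TAC) became 71 and 45 under 10 C1q UMIs, 279 and 520 under 50 C1q UMIs, 1678 and 2858 with no count filter, 309 and 387 with 50 or more UMIs, 1138 and 1817 at 1.5-fold, and 181 and 185 after thinning to 2000 UMIs. They were 272 and 1763 when scaled to receptor constant UMIs, a setting chosen after seeing the data, and 892 genes were higher with at most 5% mitochondrial UMIs.

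Median log2 ratios under 10 C1q UMIs (8 barcodes in TAC, 3 in sham) follow with the interval of the median over genes. Those with an interval that spans 0 were 1.79 (-0.71 to 4.45) for 8 naive genes and 1.28 (-0.99 to 5.13) for 6 receptor signalling genes. So did -1.02 (-2.21 to 5.33) for 7 activation genes and 0.83 (-0.17 to 1.96) for 10 MHC class I genes. The others were 0.84 (0.16 to 2.59) for 11 interferon genes and -1.23 (-2.02 to -0.33) for 17 immediate-early genes. The sham side under 50 C1q UMIs includes the 2 deep barcodes with Lyz2. There the medians were 1.37 for naive genes, 1.31 for receptor signalling, -0.64 for activation and 1.53 for cytotoxic genes. They were -1.01 for MHC class II, 0.075 for immediate-early, -1.0 for cell cycle and -2.17 for macrophage genes. Scaled to receptor constant UMIs (also chosen after seeing the data, as were the settings without barcodes over 50000 UMIs, without B cell or fibroblast UMIs and with 50 or more C1q UMIs) they were -0.68 for naive genes, -0.27 for receptor signalling, 1.32 for interferon, -1.17 for immediate-early, 0.49 for cell cycle and -1.32 for macrophage genes. Neutrophil genes were at 2.84 with each barcode counting the same and 4.12 with 50 or more C1q UMIs. Cell cycle genes were at 0.35 after thinning, 0.45 without barcodes over 50000 UMIs and 2.11 with at most 5% mitochondrial UMIs, where receptor signalling was at -0.27. Single genes that turned were Rgs1 (-2.63) and Dcn (-7.26) under 10 C1q UMIs, Igfbp4 (1.79), H2-DMa (-1.48), Ctss (-0.59) and Fosb (0.30) under 50, Nr4a2 (0.67) and Ly6c1 (-0.75) with at most 5% mitochondrial UMIs, and Dcn (-0.36) with 50 or more C1q UMIs. The cause of these moves was not tested. Interferon genes had a median above 0 and heat-shock genes a median below 0 in all settings run.

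No paired analysis was possible because each group is 1 library, and leaving out a replicate was not possible for the same reason. Animals, surgery and library cannot be told apart. C1q-poor members number 8 in TAC and 3 in sham, which limits any statement on T cells free of macrophage RNA. Where cells with fewer UMIs fail the rule, fewer cells and less RNA per cell cannot be told apart.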

Other observations

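Proliferation genes were higher in TAC more often than lower. Past 2-fold, 9 of 26 measured cell cycle genes were higher in TAC and 0 lower. Over all measured genes 5.59% were higher and 9.09% lower. The cell cycle genes had a median log2 ratio of 0.88, beside 0.72 in macrophage barcodes and 1.02 in other T barcodes. The median was 0.35 over 6 genes after thinning to 2000 UMIs, 0.45 without the barcodes over 50000 UMIs, and -1.0 over 7 genes under 50 C1q UMIs per 10000. Top2a, the topoisomerase of dividing cells, was 101 CPM in TAC and 52.4 CPM in sham, beside 88.5 CPM in TAC macrophages and 51.9 CPM in sham macrophages. Rrm2, which makes deoxynucleotides, was 30.1 CPM in TAC and 6.48 CPM in sham, and 1 TAC barcode held 17 of its 48 UMIs.

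Ribosomal protein genes were level between the libraries, with 0 of 78 measured genes past 2-fold and a median log2 ratio of 0.02. Their summed level was 219595 CPM in TAC and 217602 CPM in sham, above the 137019 CPM of TAC macrophages and 141346 CPM of sham macrophages. Of 25 glycolysis and hypoxia genes 5 were higher in TAC and 1 lower (5.59% and 9.09% over all measured genes). Their median was 0.67, beside 0.73 in macrophages. Vegfa, the vascular growth factor, had 20 UMIs in 10 TAC barcodes and 1 UMI in 1 sham barcode. Of 46 nuclear genes of oxidative phosphorylation 0 were past 2-fold (median 0.29).

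The 2 deepest sham barcodes carried RNA of Hmga2, the gene of a chromatin protein of fetal and transformed cells, and the other members held 0 UMIs of it. The deepest held 109335 UMIs with 34 of Hmga2 and 13.4 C1q UMIs per 10000, and the next 51285 UMIs with 11 of Hmga2 and 15.4 C1q UMIs per 10000. They held 1175 and 442 UMIs of Lyz2, and both count in the sham pool under 50 C1q UMIs per 10000.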
